A study of Mus musculus with 13 samples.

Results

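The cytosolic ribosomal protein genes encode the proteins of the large (Rpl) and small (Rps) subunits of the ribosome. They were taken by symbol, as every listed gene named Rpl or Rps with a number, plus Rpsa, which encodes the small subunit protein also known as the laminin receptor, without the Rps6k kinase genes. The rule found 79 genes, 47 Rpl and 32 Rps, among 18562 genes in 6 ChIP-seq peak lists of 4T1 cells. The lists hold H3K4me3 and H3K27me3 from sg-Ctrl and Nup210 knockout (KO) cells, and NUP210 and nuclear pore proteins (NPC, antibody MAb414) from sg-Ctrl cells. 4T1 is a mammary tumor line of BALB/cJ origin. Both cell populations carried a guide RNA, which was non-targeting in sg-Ctrl cells and cut exon 5 of Nup210 in KO cells. Cas9 was delivered transiently with an adenovirus, and the KO cells profiled were a single clone (KO-N13). Each condition has 1 library, so KO cannot be told apart from the clone or from the library, no test over replicates was possible, and the intervals given cover counting error only.

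Ribosomal proteins assemble with ribosomal RNA in the nucleolus, and their genes are transcribed in every dividing cell, which makes them a housekeeping reference for promoter marks. Most lack a canonical TATA box, and they start at a pyrimidine-rich stretch whose copy in the mRNA, the 5′ terminal oligopyrimidine tract, links their translation to mTOR. Many hold small nucleolar RNAs (snoRNAs) in their introns. H3K4me3 is the histone mark of active promoters, and H3K27me3 is the mark deposited by Polycomb repressive complex 2.

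The H3K4me3 lists hold the peaks within 4 kb of a transcription start. Level is given as ChIP reads divided by the size of the library relative to IgG and by the width of the peak (scaled reads per kb). Of the 79 genes, 78 had a peak in both H3K4me3 lists, out of 12197 genes that did, and 0 in only 1 of the lists. The exception was Rpl39l, a testis-enriched paralog of Rpl39, which had none. The 78 genes lay on 19 chromosomes and used 76 distinct peaks in sg-Ctrl. Rpl3l, a muscle paralog of Rpl3, was credited with the peak of its neighbor Rps2. For each of the 78 genes the peak with the most reads per kb was used. These peaks held 1189 to 11177 ChIP reads in sg-Ctrl and 1133 to 10081 in KO, against at most 225 IgG reads. The depth of the KO library was 1.27 times that of sg-Ctrl. At the start of Nup210 itself 885 reads of sg-Ctrl and 913 of KO gave a KO to sg-Ctrl log2 ratio per kb of -0.41 (95% interval -0.54 to -0.27). This does not check the knockout, because the guide cuts within the coding sequence downstream. Whether reads that also match processed pseudogenes of these genes were kept is not given in the sources used here, and their part in the values was not tested.

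In sg-Ctrl cells the ribosomal protein genes had a level a little above that of the typical listed gene and a narrow spread. The median was 614.7 scaled reads per kb (quartiles 522.0 to 759.3), against 542.8 for all 12197 genes, and lay at percentile 59.5 of all genes. Of the 78 genes, 56 were above the median of all genes. The highest member stood 6.91-fold above the lowest, and the 75th percentile was 1.45-fold the 25th, against 2.09-fold for all genes. Against IgG, the authors' median fold was 69.2 for the members and 53.4 for all genes in sg-Ctrl, and 50.1 and 36.6 in KO.

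Rpl30, a large subunit protein that also binds its own pre-mRNA in yeast, had the highest level in sg-Ctrl, 1549 scaled reads per kb (11177 reads, exact Poisson 95% interval of the level 1521 to 1578). Rpl37, a zinc-finger protein of the large subunit, followed with 1362, and Rps12, a small subunit protein, with 1207. These 3 genes did not overlap each other or any other member within their counting intervals. Toward the low end were Rps15 with 224.2 (1189 reads, 211.6 to 237.3), the lowest of all, and Rpl28 with 343.0, in peaks of 5000 and 10000 bp. In KO the order was similar but compressed. The highest levels were those of Rpl4 (909.0) and Rpl30 (823.5), the lowest those of Rpl6 (221.2) and Rps15 (222.0), and the highest was 4.11-fold the lowest. The median was 464.8, against 381.8 for all genes. Across the 78 genes, levels in KO and sg-Ctrl had a Spearman rho of 0.80, and across all genes of 0.86. The points share the scaling of the 2 libraries, and genes are not independent replicates.

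**Figure D1:**
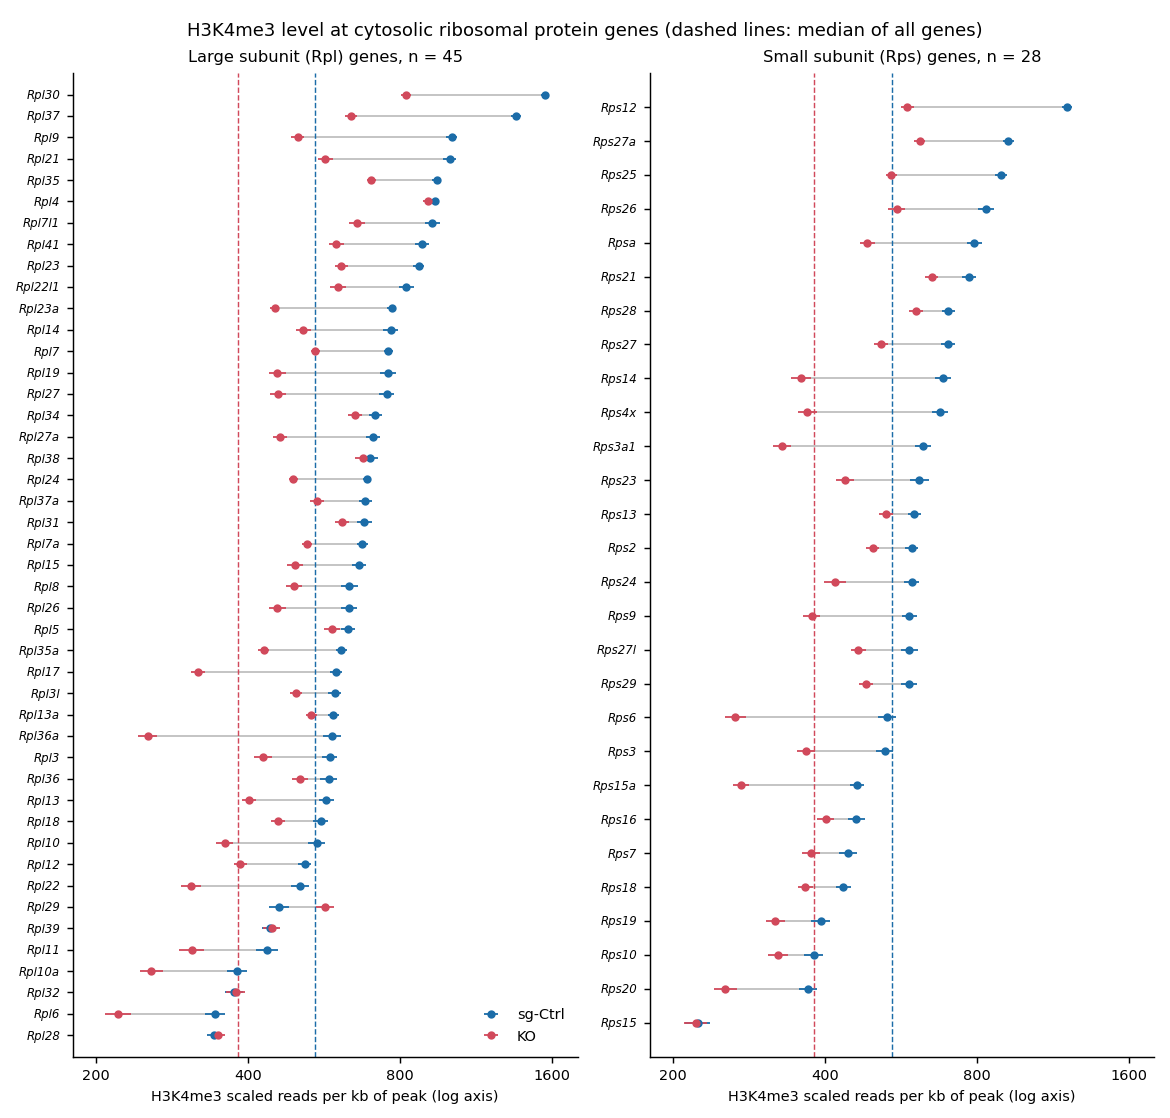
H3K4me3 level of 45 large subunit genes (left) and 28 small subunit genes (right) in sg-Ctrl (blue) and KO (red), in scaled reads per kb of peak on a log axis. Horizontal bars are exact Poisson 95% intervals of the reads and dashed lines are the medians of all 12197 genes. KO lay below sg-Ctrl for 69 of the 73 genes shown, with this scaling, with the longest distances at Rpl36a, Rpl37 and Rps12.

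In sg-Ctrl the members lay higher among all genes by width than by level, and in KO the order was the reverse, with the median width at percentile 62.6 and the median level at percentile 67.9. The median peak was 5200 bp wide in sg-Ctrl, against 3600 bp for all genes, which is percentile 77.0, and 72 of the 78 genes had a peak wider than the median of all genes. Peaks of at least 8 kb were found at 12 members, against 5.44% of all genes, and each of these 12 peaks was also listed for another gene. The widest was that of Rpl24, 13400 bp (chr16:55964801-55978200 in the coordinates of the lists, which are those of GRCm38), which reached from 1474 bp before the start to 11926 bp past it, over the whole gene, and which was also listed for Zbtb11. Rpl4, a large subunit protein that lines the exit tunnel, had 11000 bp and Rpl23a, a protein at the mouth of that tunnel, had 10200 bp. The narrowest of the peaks used were those of Rps23, a protein near the decoding site, with 3200 bp, and of Rpl11, Rpl38 and Rpl7l1 with 3400 bp each. The peak over the start of Rpl36, which was not the one used, had 2400 bp. Level and width were unrelated among the members (Spearman rho 0.00, n = 78), whereas rho was 0.45 among all genes.

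The peaks extended mainly into the genes. Over the 77 members with a peak that covered the start, the median peak in sg-Ctrl reached 1557 bp upstream and 3350 bp downstream of the start, against 1365 and 2111 bp for 11253 other genes. Ribosomal protein genes are short, with a median length of 2905 bp for these 77, against 20357 bp for the others. The mark covered the gene from start to end in 45 of 77 members (58.4%) in sg-Ctrl and in 45 in KO. Among 3499 other genes within the members' range of length (852 to 11772 bp) it did so in 11.5% in sg-Ctrl and in 13% in KO, though these genes were longer, with a median of 5954 bp. A peak was listed for at least 1 other gene at 50 of 78 members (64.1%), against 33.5% of all genes, and 22 members shared it with an annotated snoRNA gene. Those 22 had a median width of 5800 bp and a median log2 KO to sg-Ctrl ratio of -0.49, and the other 56 had 5000 bp and -0.46.

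**Figure D2:**
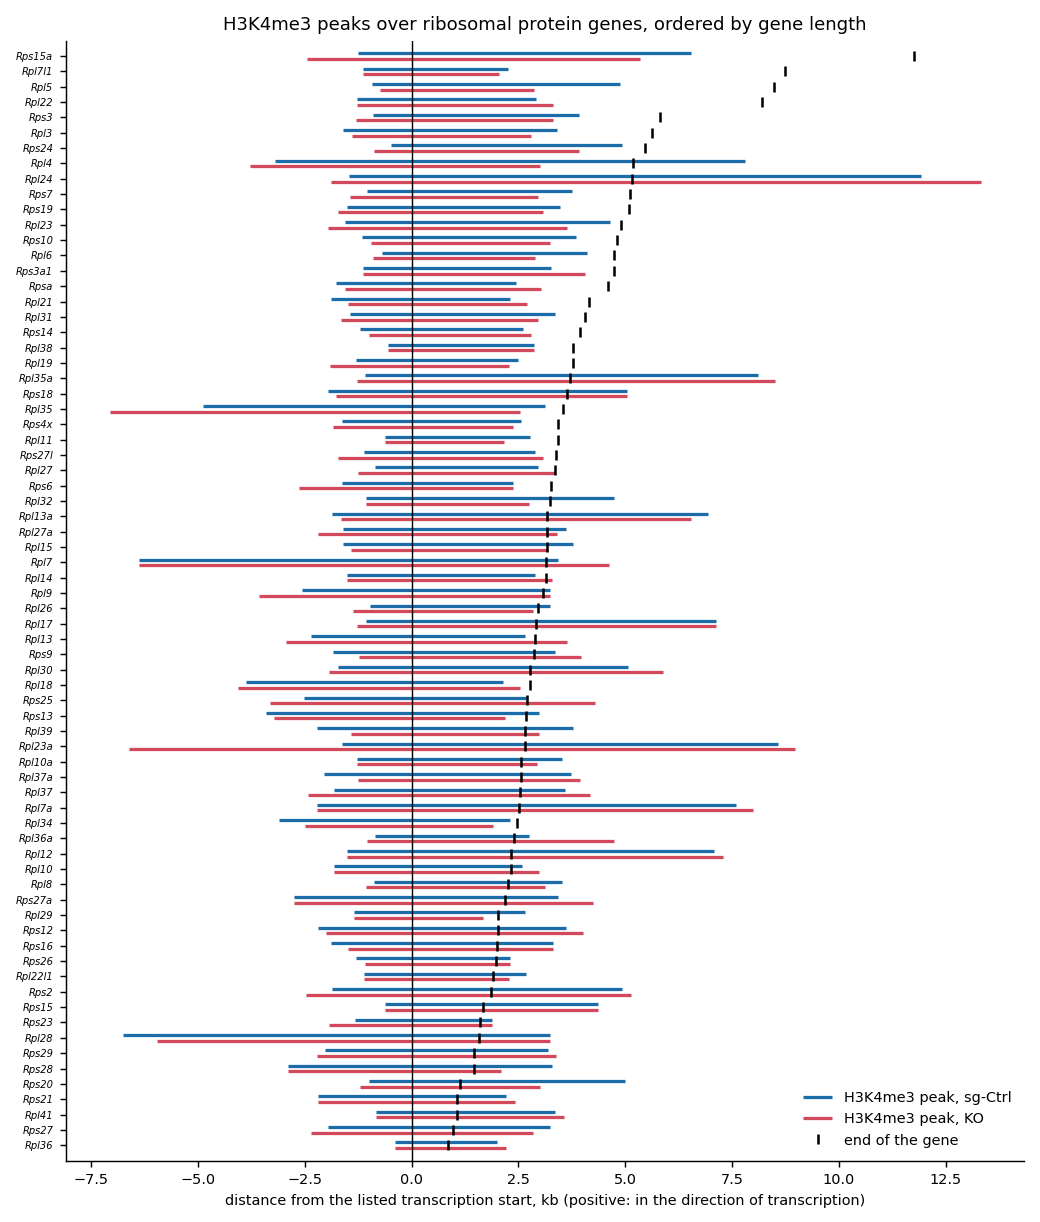
H3K4me3 peaks in sg-Ctrl (blue) and KO (red) along 72 ribosomal protein genes with a peak over the start, as distance in kb from the start in the direction of transcription, ordered by gene length, with a black tick at the end of each gene. The peaks passed the end of 42 of these genes in sg-Ctrl, and among the genes above 5 kb only those of Rpl4 (sg-Ctrl) and Rpl24 did.

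H3K4me3 in KO was compared with sg-Ctrl as the log2 ratio of scaled reads per kb. The members had a median of -0.47 (quartiles -0.63 to -0.25, range -1.21 to 0.31), and all genes had -0.50. The spread of the members was smaller, with an SD over genes of 0.30 against 0.44. The zero of this scale depends on the scaling: when libraries were scaled by the reads of shared peaks, all log2 ratios moved by 0.42, so the values are best read against the median of all genes. With library size, KO was above sg-Ctrl at 4 members and below at 74, and with the shared-peak scaling above at 34 and below at 44 (for all genes, 11.3% and 42.3% above). Counting intervals of the log2 ratio had a median distance of 0.07 from value to bound. They lay wholly below the median of all genes at 25 members and wholly above it at 35, and spanned it at 18. Over all genes these shares were 40.7% below and 40.1% above.

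A level at least 2-fold lower in KO was seen at 4 of 78 members (5.13%), against 9.66% of all genes, and at least 2-fold higher at 0, against 0.525%. Rpl36a, an X-linked large subunit protein gene, went from 587.6 to 253.4 scaled reads per kb (2244 and 1981 reads), a log2 ratio of -1.21 (-1.30 to -1.13). Its peak went from chrX:134584801-134588400 to chrX:134584601-134590400, that is from 3600 to 5800 bp, and the log2 ratio of its total scaled reads was -0.53. Rpl37 went from 1362 to 640.1 (7800 and 5693 reads, -1.09, interval -1.14 to -1.04) and Rpl9, a large subunit protein at the base of the stalk, from 1013 to 502.2 (6235 and 4602 reads, -1.01, -1.07 to -0.96). Rps12 went from 1207 to 583.5 (7427 and 4718 reads, -1.05, -1.10 to -0.996) while its width hardly moved, from 5800 to 6000 bp, and its total scaled reads were 7001 in sg-Ctrl and 3501 in KO. The peaks of these 4 genes were each listed for another gene too, Btk, Snord72, Lias and the snoRNA genes Snora33 and Snord100. The nearest gene outside the limit was Rps6, the target of the S6 kinases, with a ratio of 0.501 (2253 and 1794 reads) against 0.496 for Rpl9. By total scaled reads of the peak none of the 4 passed the 2-fold limit, but Rps12 lay practically on it (log2 -0.9998). The 2 members that passed it by that measure were Rps24 (log2 -1.56) and Rps20 (-1.06), whose peak went from 6000 to 4200 bp. The KO peak used for Rps24 was that of a neighbor. Rps24 also passed the limit with the peak over its own start, where the count fell from 3407 to 2051. The KO library was the deeper one, by 1.27 times.

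The 4 genes above sg-Ctrl in KO were Rpl29, Rpl28, Rpl39 and Rpl32, against 11.3% of all genes. Rpl29, a small basic protein of the large subunit, had a level of 460.9 in sg-Ctrl cells and 569.6 in KO cells (1956 and 2303 reads), which gives a log2 ratio of 0.31 (0.22 to 0.39). Its peak narrowed from 4000 to 3000 bp, and its total scaled reads were lower in KO (log2 -0.11). The intervals of Rpl28 (0.03, -0.04 to 0.09), Rpl39 (0.01, -0.07 to 0.09) and Rpl32 (0.01, -0.08 to 0.10) included 0, and their peaks also narrowed. Rps15, a protein of the small subunit head, stood out at the same end of the scale with identical edges in both libraries (5000 bp), 1189 sg-Ctrl reads, 1496 KO reads and a log2 ratio of -0.01 (-0.12 to 0.10).

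The sequence around the start is shown for the 4 genes with the lowest ratio and for the 4 with the highest among those with a RefSeq promoter near the listed start, to show what starts at either end of the range look like. Each runs from 50 bases before the start to base 20 of the transcript in GRCm38.p6. Capitals mark GGAAG or its reverse complement CTTCC, the core of the sites of ETS factors, and runs of 8 or more C or T that come within 20 bases of the start. The windows of the 4 lowest are chrX:134585604-134585673 (plus strand), chr15:5116563-5116632 (plus), chr10:23787190-23787259 (minus) and chr5:65391412-65391481 (minus).
Rpl36a: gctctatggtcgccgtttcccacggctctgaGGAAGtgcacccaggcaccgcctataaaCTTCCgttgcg
Rpl37: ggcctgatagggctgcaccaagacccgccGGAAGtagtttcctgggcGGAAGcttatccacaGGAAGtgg
Rps12: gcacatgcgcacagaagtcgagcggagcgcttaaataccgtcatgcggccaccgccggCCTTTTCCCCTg
Rpl9: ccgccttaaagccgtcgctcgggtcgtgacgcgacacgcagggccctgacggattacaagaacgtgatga
The windows of the 4 highest are chr7:4792915-4792984 (plus strand), chrX:37085203-37085272 (minus), chr10:80292381-80292450 (plus) and chr11:114668530-114668599 (plus).
Rpl28: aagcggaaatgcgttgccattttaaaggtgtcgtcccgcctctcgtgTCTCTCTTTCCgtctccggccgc
Rpl39: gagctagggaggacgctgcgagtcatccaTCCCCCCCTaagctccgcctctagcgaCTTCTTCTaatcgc
Rps15: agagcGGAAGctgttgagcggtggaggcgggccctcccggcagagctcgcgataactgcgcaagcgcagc
Rpl38: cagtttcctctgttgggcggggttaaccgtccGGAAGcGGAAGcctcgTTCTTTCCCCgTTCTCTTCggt
Both ends of the range held starts with a pyrimidine run (Rps12 below, Rpl28, Rpl39 and Rpl38 above) and starts without one (Rpl36a, Rpl37 and Rpl9 below, Rps15 above).

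RefSeq promoters of 250 bases before to 50 after the start were found for 59 of the 78 genes, and for 56 of them the start lay within 50 bp of the listed one. Rpl17, Rpl21, Rpl23a, Rpl29, Rpl3, Rpl30, Rpl32, Rpl36, Rpl7, Rpl8, Rps14, Rps20, Rps27a and Rps29 were among those without an entry. A run of 8 or more C or T within 20 bases of the start was present on the coding strand in 27 of the 56 (48.2%) and in 14.6% of 7952 other genes with H3K4me3. CTTTCC in the same window was found in 9 (16.1%) and in 1.76% of the others. CCGGAAG, on either strand of the whole window, was found in 24 (42.9%) against 20.1%, and GGAAG, which it contains, in 53 (94.6%) against 75.7%. The GC box GGGCGG was held by 34 (60.7%) against 68.2%, AAGATGGC, which is part of YY1 sites, by 5 (8.93%) against 5.17%, and TATAAA from 40 to 16 bases before the start by 1 (1.79%) against 1.11%. The shorter TATA in that same stretch was held by 7 (12.5%) against 2.58%. The 27 genes with a pyrimidine run had a median log2 ratio of -0.42 and the 29 without it -0.50. The 9 with CTTTCC had -0.24. These motifs were chosen with the values known, so the medians are a description.

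Peak width in KO was compared with sg-Ctrl in the same way, with no test of the difference between the members and other genes. The median log2 ratio of width was 0.00 for the members and 0.14 for all genes. Of the 78 members, 37 were wider in KO, against 63.1% of all genes, 32 were narrower, against 27.1%, and 9 were the same. Among 3371 other genes with a width in sg-Ctrl within the members' quartiles, 57.5% were wider and 34.6% narrower, with a median log2 ratio of width of 0.07. The median width went from 5200 to 4800 bp, while that of all genes went from 3600 to 4200 bp. Of the 28 members whose peak was listed for no other gene, 5 were wider, 16 narrower and 7 the same. Of the 50 members with a shared peak, 32 were wider and 16 narrower. The same split is not given for the other genes, so whether it is particular to the members was not tested. Downstream edges lay farther from the start in KO at 31 of 77 members and nearer at 34. Among the other genes 51.7% had a farther and 31.0% a nearer downstream edge. Upstream edges lay farther at 36 and nearer at 20, with farther edges at 57.9% of the others and nearer edges at 2151 of those 11253 genes. The largest retreat was at Rpl4, whose peak ended 7814 bp past the start in sg-Ctrl and 3014 bp past it in KO, while its reads per kb hardly differed (937.9 and 909.0). Rpl5, which binds a ribosomal RNA of the large subunit and also Mdm2, had a downstream edge at 4873 bp in sg-Ctrl and 2873 bp in KO, and levels of 630.9 and 587.0. Rpl23a went the other way, from 10200 to 15600 bp, in a peak shared with Nek8, Rab34 and snoRNA genes.

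Width and reads per kb are linked by arithmetic, since width is the divisor. Among members the 2 log2 ratios had a Spearman rho of -0.49, and among all genes of -0.24, a description over genes that share both libraries. The 32 members narrower in KO had a median log2 ratio of -0.25, the 37 wider ones of -0.56, and the 9 of unchanged width of -0.64. Over all genes these medians were -0.39 for narrower peaks, -0.56 for wider ones and -0.37 for those of unchanged width. The total scaled reads are not divided by width, but they went with it in the other direction. Over all genes their median log2 ratio was -0.65 for narrower peaks and -0.19 for wider ones, and over members -0.55 and -0.39. It was -0.46 for all members together and -0.32 for all genes together. The members were thus above the median of all genes by reads per kb and below it by total reads, and neither measure is free of width.

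**Figure D3:**
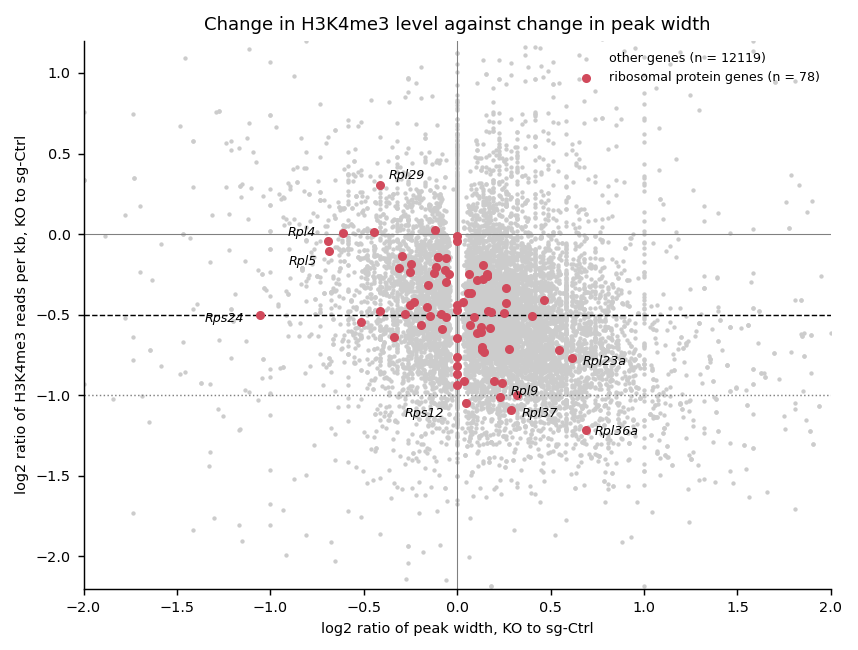
Log2 ratio of H3K4me3 reads per kb, KO to sg-Ctrl, against the log2 ratio of peak width, for 78 ribosomal protein genes (red) and 12119 other genes (grey, of which 84 lie outside the axes). The dashed line is the median of all genes, -0.50, and the dotted line a 2-fold lower level. Members ran from Rpl29, narrower and denser in KO, and Rpl4 and Rpl5, narrower with little loss of density, to Rpl36a, wider at 0.431 of its density in sg-Ctrl. Rps24, at the far left, is shown with its neighbor's peak in KO.

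The member peak with the most reads per kb was that of a neighbor, away from the start of the member itself, at Rpl8, Rpl36 and Rpl3l in both libraries and at Rps24 in KO. With the peak over the start, Rpl8 had 1616 reads in sg-Ctrl and 1792 in KO (log2 ratio -0.13, in place of -0.37). Rpl36 had 908 and 1348 reads (0.11, in place of -0.19), and its interval of -0.01 to 0.23 included 0. In sg-Ctrl that peak of Rpl36 was narrower, at 2400 bp, and held fewer reads than any of the peaks used. Rps24, mutated in Diamond-Blackfan anemia, had 3407 and 2051 reads (-0.91, in place of -0.50). Rpl3l had no peak over its start in either library. With peaks over the start the median of the members was -0.48, so the choice did not move the summary.

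By chromosome, ratios of all genes differed, and the members were therefore also read against the other genes of their own chromosome. The medians of the other genes ran from -0.72 to -0.36. The members had a median of 0.04 above their chromosome (95% interval of the median over genes, by order statistics, -0.03 to 0.14, which spans 0), with 45 above it and 33 below, against 50% and 49.9% of all genes. By total scaled reads the median lay at -0.13 and by the authors' fold over IgG at -0.0072, both on the other side of the chromosome medians. Member medians lay above that of the other genes on 11 chromosomes and below on 8. On the 12 chromosomes with at least 3 members, the members' medians ran from -0.74 to -0.25, and their Spearman rho with the medians of the other genes was 0.13.

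Chromosome 7 held the most members, 13, with a median of -0.25 against -0.36 for the other 910 genes. These were, among others, Rpl13a (-0.14), Rps16 (-0.20) and Rps19 (-0.30), with Rps15a (-0.77) and Rps9 (-0.64) at the low end. Rps19 is among the genes mutated in Diamond-Blackfan anemia. Chromosome 17 held 8, with a median of -0.25 against -0.43. On chromosomes 4 and 5, where the other genes had the lowest medians among chromosomes with at least 3 members (both -0.72), the 5 members of chromosome 4 had -0.54 and the 4 of chromosome 5 had -0.73. Member medians below those of the other genes, found on 8 chromosomes against 11 with the opposite, included chromosome 11 (-0.58 against -0.48) and chromosome 15 (-0.67 against -0.39). The X chromosome was another of the 8. Its other genes had -0.36, whereas its members were Rpl36a (-1.21), Rps4x (-0.87), Rpl10 (-0.61), which joins the large subunit late, and Rpl39 (0.01), with a median of -0.74. Farthest above their chromosome were Rpl29 (0.75), Rps15 (0.62) and Rpl5 (0.62), and farthest below were Rpl36a (-0.85), Rpl37 (-0.70) and Rpl30 (-0.52).

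**Figure D4:**
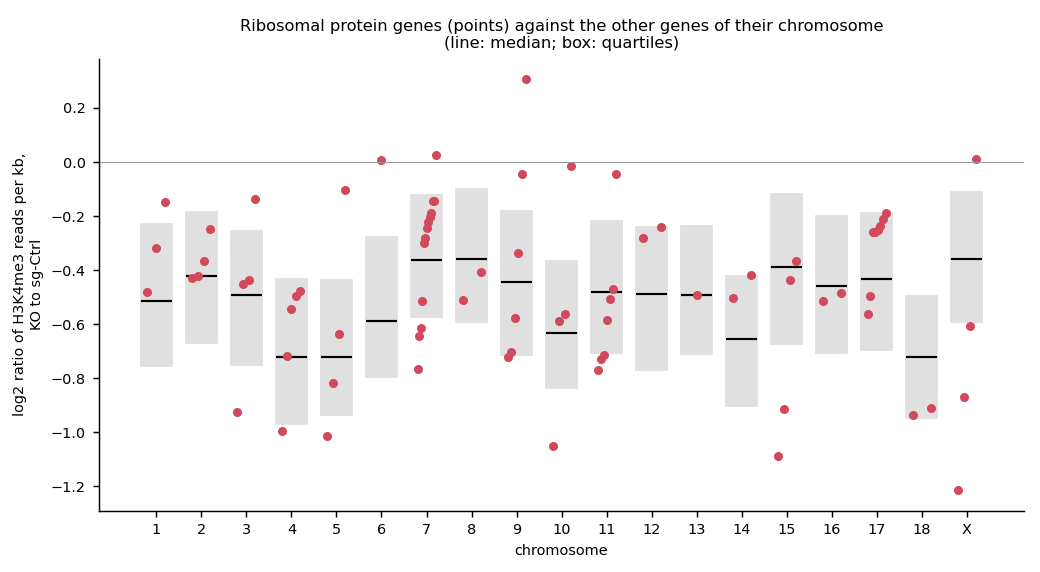
Log2 ratio of H3K4me3 reads per kb, KO to sg-Ctrl, for each ribosomal protein gene (red) by chromosome, with the median (line) and quartiles (box) of the other genes. Members scatter across and beyond the boxes, and 3 of the 4 on the X chromosome lie below the lower quartile of -0.59.

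Values of the large and the small subunit lay close together, within the quartiles of each other. The 46 Rpl genes had a median sg-Ctrl level of 669.4 scaled reads per kb, a median width of 5300 bp and a median log2 ratio of -0.48, and the 32 Rps genes had 590.0, 5100 bp and -0.46. Of the genes at least 2-fold lower in KO, 3 were Rpl and 1 was Rps. Paralogs with a peak of their own lay near the median of the members. Rpl22l1 had 3323 reads in sg-Ctrl and 2765 in KO (-0.45), Rpl7l1 had 3344 and 2837 (-0.49) and Rps27l, a target of p53, had 2497 and 3018 (-0.33).

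The symbol rule misses other genes of the cytosolic ribosome. The stalk protein genes Rplp0, Rplp1 and Rplp2 had log2 ratios of reads per kb of -0.78, -0.55 and -0.52, and the peak of Rplp0 went from 7800 to 3800 bp. Rpl36al, an autosomal copy of Rpl36a, had -0.80 (4567 and 3753 reads). Fau, which encodes a ribosomal protein fused to a ubiquitin-like protein, had -0.40, and Gnb2l1, which encodes the scaffold RACK1 of the small subunit, had -0.17. By reads per kb none of these 6 genes was 2-fold lower in KO. The reads of Rplp0 went from 3890 in sg-Ctrl to 1406 in KO, although the KO library was 1.27 times as deep. By total scaled reads of the peak Rplp0 was therefore more than 2-fold lower.

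Other genes of translation had a smaller median width than the ribosomal protein genes in sg-Ctrl, and in KO the translation factor and the ribosome assembly genes, each with 5200 bp, had a larger one. The 76 mitochondrial ribosomal protein genes had a median level of 708.6 scaled reads per kb but a width of 3500 bp in sg-Ctrl, which went to 4300 bp in KO, with 63 of 76 wider (82.9%, against 63.1% of all genes). Their median log2 ratio was -0.65, and 12 (15.8%) were at least 2-fold lower, the lowest being Mrpl13 (-1.32), Mrps18c (-1.32) and Mrpl22 (-1.30). The 57 translation factor genes had a width of 4400 bp and a ratio of -0.59, with 4 at least 2-fold lower (Eif4g3, Eif4enif1, Eif2b1 and Eif3a). The 51 ribosome assembly genes had 4200 bp and -0.48, with 3 at least 2-fold lower (Nhp2, Mrto4 and Nop14). In genes that are no member and have a peak width within the members' quartiles (n = 3371), the median ratio was -0.55 and 8.99% were at least 2-fold lower, against 5.13% of the members. No test sets these lists apart from the members.

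**Figure D5:**
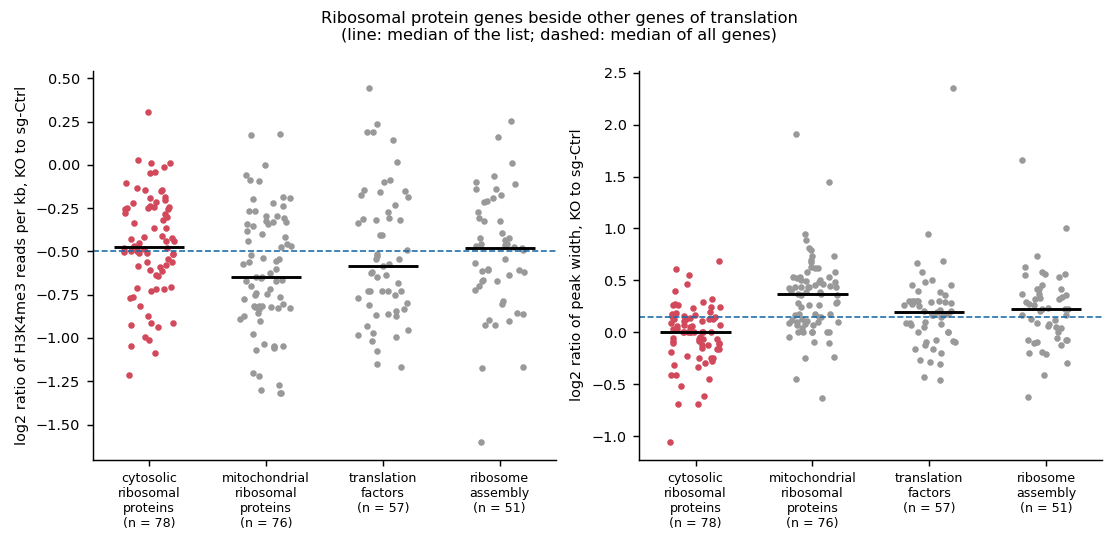
Log2 ratios, KO to sg-Ctrl, of H3K4me3 reads per kb (left) and of peak width (right) for cytosolic ribosomal protein genes (red) and for 3 other lists of translation genes (grey), with the median of each list (line) and of all genes (dashed). The mitochondrial ribosomal protein genes have the lowest median on the left (-0.65) and the highest on the right (0.37), and the cytosolic ones have the lowest on the right (0.00).

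The remaining lists hold peaks that meet gene bodies, and few members were in them. For H3K27me3 the list of each library held 1 of the 79 genes (1.27%), against 2.9% in sg-Ctrl and 2.37% in KO of 3930 other genes with H3K4me3 whose length fell in the members' range. These genes were not matched for length within it and had a median of 5774.5 bp, against 2937 bp for the members with H3K4me3, so the shares are not those of genes of equal length. That gene was Rpl39l, the member without H3K4me3 (chr16:10170228-10174911, plus strand). The other genes all had H3K4me3 in both libraries, and the 78 members that also did were in neither H3K27me3 list. At Rpl39l in sg-Ctrl a peak of 9 kb (chr16:10171001-10180000) held 247 ChIP and 109 IgG reads, a fold over IgG of 2.68. In KO, with a depth 3.16 times as large, a peak of 24 kb (chr16:10156001-10180000) held 2053 and 260 reads, a fold of 2.95. Per kb of peak, sg-Ctrl had 32.4 scaled reads (28.5 to 36.7) and KO had 32.0 (30.6 to 33.4), so that the intervals overlapped and the peaks differed in extent. Neither peak was listed for another gene.

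NUP210 peaks met 3 of the 79 genes (3.80%), against 8.58% of those other, longer genes. Rpl30, the gene with the highest H3K4me3 level, lay in a NUP210 peak of 39 kb with 820 ChIP and 665 IgG reads (fold 1.22), shared with Matn2 and other genes. Rpl39l had 216 and 193 reads (fold 1.11, FDR 0.0867), and Rps27l had 254 and 254 (fold 0.989, FDR 1), which is no more than IgG. NPC peaks met 4 (5.06%), against 7.48%. They were Rps27l (250 ChIP and 332 IgG reads, fold 1.24 after scaling), Rpl39l (201 and 293, fold 1.13, FDR 0.0682), Rpl24 (484 and 713, fold 1.12) and Rps27a (690 and 1033, fold 1.10), which encodes a ribosomal protein fused to ubiquitin. The highest of these 7 folds over IgG was 1.24. Rpl39l, counted in both member shares, had no H3K4me3 peak, whereas all genes of the comparison had one.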

How the data were processed

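The data were 6 deposited ChIP-seq lists of 4T1 cells, each from 1 library. RNA-seq (4 samples) was not used here, and of the 3 IgG samples only the reads per peak were. Peaks were the authors' SICER calls for each library relative to IgG. Their windows spanned 200 bp for H3K4me3 and 1000 bp for H3K27me3 and NUP210 (for NPC not given in the sources used here). The submitters' processing notes name Trimmomatic, STAR, Picard and Bowtie2. The deposited values per peak are raw counts of ChIP and IgG reads, a p-value, an FDR and a fold over IgG. The deposited fold is a ratio that the authors scaled by library size, with 0.25 reads in place of 0 IgG reads.

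The ratio of ChIP to IgG library size was recovered from counts and folds: 1.06 and 1.35 for H3K4me3 in sg-Ctrl and KO, 0.847 and 2.68 for H3K27me3, 1.01 for NUP210 and 0.606 for NPC. In all 593 genes with a peak of the same edges in both H3K4me3 lists the IgG reads were the same, so both lists used the same IgG library. ChIP reads were divided by these ratios and by width. Total depth is unknown beyond them and the 26236314 (sg-Ctrl) and 24873356 (KO) reads in H3K4me3 peaks.

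For a gene with several H3K4me3 peaks that of the most reads per kb was used. Intervals are exact at 95%, Poisson for levels and Clopper-Pearson on the share of reads for ratios. With 1 library per condition no test was run. Alternatives were other scalings, measures, peak choices, FDR or fold limits, overlaps and member sets. The members, the lists of other genes and the motifs were chosen with earlier results of these data known. Genes named are the 3 highest and 3 lowest by level, width, ratio and ratio against the chromosome, those past 2-fold, those without an H3K4me3 peak or with a peak in the gene body lists, paralogs and unmatched genes, apart from some that are not reported here. Others, such as the members of chromosomes 7 and X, the members with the least and most H3K4me3 in KO, and those with a neighbor's peak, were chosen after their values were seen.

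Starts in the lists matched RefSeq GRCm38.p6 within 50 bp for 89.8% of 8918 genes, so coordinates are taken as GRCm38. Sequences are from RefSeq. The steps were tested on simulated Poisson reads in the sg-Ctrl peaks, with the same edges in both libraries. That simulation does not bear on changes in peak width or on the choice of peak. Software was Python 3.11.15 with scipy 1.17.1, pandas 2.3.3, numpy 2.4.6 and, for figures, matplotlib 3.10.9.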

Additional observations from a re-analysis of the deposited data

How the results depend on the processing

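No paired analysis was possible because each condition has 1 library. Of 90 alternative values for 10 summary results, 74 stayed close to those reported. Close meant within the order-statistics interval over genes for medians, and within a set fold limit for counts. Some had little or no room to move. Rescaling the libraries leaves the median against the chromosome unchanged, and the FDR and fold limits on H3K4me3 peaks kept all 78 members. The 74 are therefore not a count of independent checks. With scaling by shared peaks the median log2 ratio of the members was -0.053 and 0 members were at least 2-fold lower (all genes -0.08 and 1.25%), and with no scaling these were -0.13 and 0 (all genes -0.15 and 1.91%). By total scaled reads 2 members were at least 2-fold lower, Rps24 and Rps20 (all genes 7.63%). Neither is among the 4 named by reads per kb, of which Rps12 lay practically on the limit (log2 -0.9998). By total scaled reads the median against the chromosome was -0.13, a change of side, as it was by the authors' fold over IgG (-0.0072). By the authors' fold over IgG 8 were at least 2-fold lower (17.5% of all genes). Among the 28 members whose peak was listed for no other gene, 0 were at least 2-fold lower, the level was at percentile 56.0, the width 4700 bp and the log2 ratio of width -0.063. With an FDR of at most 0.05 or of at most 0.01, 1 member kept a NUP210 peak, and at a fold of at least 2 there were 0. For NPC, 1 was left at an FDR of at most 0.01 and 0 at a fold of at least 2. The use of peaks over the start was chosen after the data were seen and moved no summary. With 1 library per condition the intervals say nothing of the spread between cultures or clones.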
